A study of Danio rerio with 5 samples.

Results

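The genes described here encode the proteasome, its regulators and its assembly factors. They were chosen by name: every gene to which the platform's probe table gives a single symbol that starts with psm, a letter from a to g and a digit. The rule took 50 genes, measured by 61 probe sets, out of 8793 named genes on the array. By their symbols they fell into 8 α and 7 constitutive β subunits of the core particle, 7 ATPases and 11 other subunits of the regulatory particle, 3 activators, 1 inhibitor, 5 immune-type β subunits and 6 assembly chaperones. The last 2 genes, psmc3ip and psme3ip1, carry the name of a proteasome gene whose protein they bind and are not subunits. A further 9 genes that RefSeq names by the same pattern, among them psma3, psmd14, psme4a and psme4b, were not analysed here.

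Whole larvae of the AB strain were sampled at 7 days after fertilization, with 1 array for unirradiated controls, 1 for larvae given 12 Gy of protons and 3 for larvae given 15 Gy. Irradiated embryos were exposed at 24 h to a beam of 8 MeV/u at 7.5 Gy/min. Doses are in gray (Gy), the energy absorbed per mass of tissue. The controls came from the same pooled wild type embryos and were otherwise kept in the same way. Each array held RNA of a pool of 20 animals taken from a group of 60, so an array value is an average over animals and over all tissues. The design describes 1 group of 60 embryos per condition, and whether the 3 pools at 15 Gy, labelled as biological replicates, were irradiated on separate occasions is not stated, so the tests measured the spread between these pools.

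The proteasome is the chamber in which cells degrade proteins that have been tagged with ubiquitin. Rings of α subunits form the gate of the core particle, and rings of β subunits inside carry the active sites. The regulatory particle sits on the gate, recognises ubiquitin, and unfolds the substrate with a ring of ATPases. When proteasome activity is insufficient, animal cells are known to raise transcription of nearly all core and regulatory particle genes together, in mammals through the transcription factor Nfe2l1. Interferons are known to induce a different set, the activator genes psme1 and psme2 and the immune-type β subunits, which replace the constitutive active subunits and favour peptides for antigen presentation.

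The arrays themselves bear on all results. Each probe set has 1 intensity per array, described below as its log2 value, and a difference of 1 on this scale is a 2-fold difference. Where 3 values follow a mention of 15 Gy they are those of replicates 1, 2 and 3, in that order. Median log2 values ran from 5.95 to 6.03. The 5′ to 3′ intensity ratio of the actin control probe sets, which falls as RNA breaks down, stood at 0.0171 in controls, 0.0354 after 12 Gy and 0.129, 0.0350 and 0.108 after 15 Gy. The tissue markers of a whole larva were measured above the dimmest 25% of probe sets on every array for 10 of 12 listed fast muscle genes and 11 of 12 neuronal genes. Fast muscle markers had a median log2 difference from the control of 0.54 at 15 Gy and 0.61 at 12 Gy. Of these, 8 of 10 lay above the control in all 3 arrays at 15 Gy, against 41.0% of named genes. Over 8 liver markers the medians were 1.78 at 15 Gy and 0.97 at 12 Gy, and over 8 photoreceptor markers −2.96 and −2.88. The liver markers were not uniform. At 15 Gy fgb, fga, fgg and cp differed by 2.15 to 2.95, and tfa and ambp by 0.66 and 0.59. The liver marker fabp10a differed by −0.76 and was below the control in all 3 arrays at 15 Gy. Neuronal markers lay below the control in all 3 arrays at 15 Gy in 11 of 11 measured genes, against 36.5% of named genes. Their summed intensities were 20635 in controls, 7875 after 12 Gy and 2644, 9235 and 6504 after 15 Gy. In bulk samples, fewer cells of a type and less RNA per cell cannot be told apart.

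The core and regulatory particle genes were higher at 15 Gy than in the control, and at 12 Gy their median was at the control's level. Every 15 Gy array exceeded the control in all 33 of them, as it did for 41.0% of named genes. The mean at 15 Gy was at least 0.3 higher on the log2 scale in 30 of the 33, against 29.2% of named genes, whereas the 12 Gy array was above the control in 16, against 48.4%. Their median difference from the control was 0.50 on the log2 scale at 15 Gy and −0.0034 at 12 Gy, against 0.01 and 0.00 over all named genes. They lay close together, with a central range (quartiles) of 0.42 to 0.56 at 15 Gy, whereas that of all named genes ran from −0.23 to 0.39. The 15 Gy arrays differed among themselves, with medians of 0.65, 0.22 and 0.59 above the control in replicates 1, 2 and 3.

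**Figure D1:**
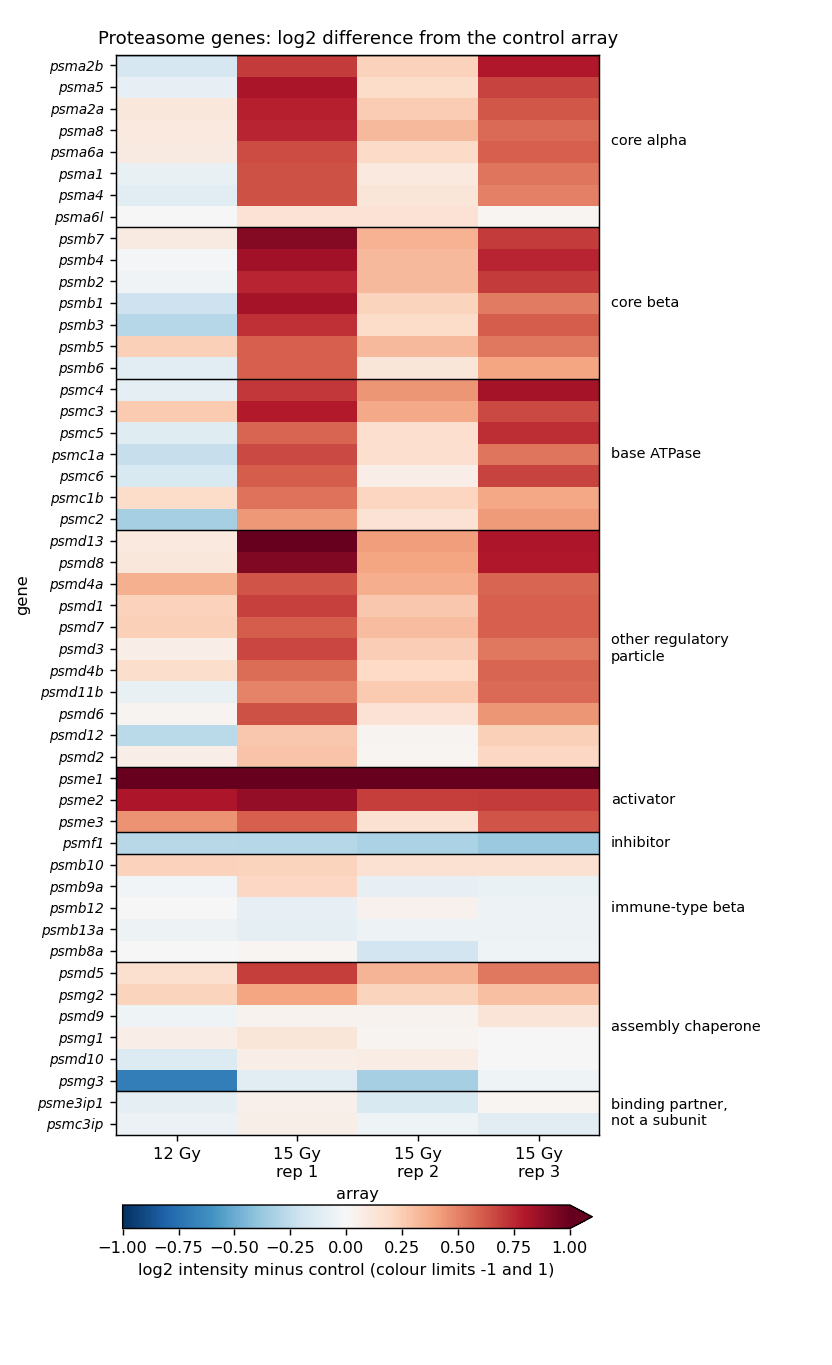
Difference in log2 intensity from the control array (colour) for the 50 genes (rows, grouped by class) in the 12 Gy array and the 3 arrays at 15 Gy (columns). Most core and regulatory particle genes are pale at 12 Gy, where psmc2 (−0.33) and psmd4a (0.35) differ most, and redder at 15 Gy. In replicate 2 they are palest of the 15 Gy arrays, and psmd2 (0.02), psmd12 (0.03) and psmc6 (0.06) are near white there. The genes psme1 and psme2 are red and psmf1 is blue in all 4 arrays.

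None of these differences passed the test over the whole array. With limma and Benjamini-Hochberg adjustment, the comparison of 15 Gy with control called 0 of the 50 genes at a threshold of 0.05 and 0.0% of all 15502 probe sets. At an unadjusted p of 0.05, 5 of the 50 were higher and 1 was lower, against 17.4% and 10.4% of named genes. For a typical core or regulatory particle gene the difference of 0.50 stood beside a standard error of 0.23, which was set by the spread of the 3 arrays at 15 Gy.

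Among the α subunits, psma5 had log2 intensities of 7.51 in controls, 7.42 after 12 Gy and 8.32, 7.69 and 8.18 after 15 Gy. The 15 Gy arrays all lay above the other arrays, replicate 2 by the least. At 15 Gy its difference from the control was 0.56 (SE 0.31, limma adjusted p = 0.313). The paralogs psma2a and psma2b differed from the control by 0.55 and 0.58 at 15 Gy, and by 0.11 and −0.17 at 12 Gy. Their probe sets may share signal, since the copies are similar in sequence. The gene psma8 shares its name with a mammalian α subunit that replaces psma7 in the testis. No gene named psma7 was among the members or among the RefSeq genes of the pattern that were left out. In the arrays psma8 was above its control value of 9.24 by 0.09 after 12 Gy. After 15 Gy it was above it by 0.76, 0.32 and 0.57, close to the other α genes. Of 5 germ cell markers listed, 2 lay above the control in all 3 arrays at 15 Gy and 2 below, against 41.0% and 36.5% of named genes, with a median difference of −0.13. Of these 5, 2 were in the dimmest 25% of probe sets on all arrays and 3 on at least 1. The exception among the α genes was psma6l, a copy of psma6, at 6.03, 6.03 and 5.91 in the 15 Gy arrays against 5.89 in the control array, a difference of 0.10 (SE 0.09). Its sister gene psma6a differed by 0.48 (SE 0.24).

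The active sites of the core lie in the β subunits encoded by psmb5, psmb6 and psmb7, which cut after hydrophobic, acidic and basic residues. The gene psmb5 stood at 8.21 in controls, 8.44 after 12 Gy and 8.80, 8.53 and 8.73 after 15 Gy. For psmb7 the values were 9.41 in controls, 9.51 after 12 Gy and 10.33, 9.76 and 10.11 after 15 Gy. In both genes the control was lowest and the 12 Gy array next. For psmb6 the values were 8.76 in controls, 8.64 after 12 Gy and 9.35, 8.88 and 9.15 after 15 Gy, so its 12 Gy array was the lowest of all. At 15 Gy the differences were 0.48 (SE 0.14) for psmb5, 0.66 (SE 0.27) for psmb7 and 0.37 (SE 0.23) for psmb6. The structural subunit genes psmb1, psmb2, psmb3 and psmb4 differed by 0.51 to 0.64 at 15 Gy and by −0.29 to −0.01 at 12 Gy.

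The ATPase genes lay close together at 15 Gy, with differences of 0.34 to 0.66 in 7 genes. After cyclic loess, a scaling that evens out differences that vary with brightness, their median was 0.29 in place of 0.45, and psmc2, the lowest, stood at 0.15. The largest was psmc4, at 9.65, 9.38 and 9.77 in the 15 Gy arrays against 8.94 in the control array (difference 0.66, SE 0.19, limma adjusted p = 0.180). At 12 Gy the ATPase genes had the lowest median of the core and regulatory classes, −0.12, and psmc2 differed most, by −0.33 (SE 0.20). The psmc2 values were 9.14 in controls, 8.81 after 12 Gy and 9.57, 9.28 and 9.56 after 15 Gy, so here too the 12 Gy array stood lowest. The copies psmc1a and psmc1b differed by 0.45 and 0.38 at 15 Gy. For psmc1b another probe set gave 0.44 and the dimmest gave −0.19, so its probe sets disagreed in sign.

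The other regulatory particle subunits had a wider range, 0.17 to 0.79 at 15 Gy in 11 genes. The highest was psmd13, a subunit of the lid, at 7.76 in controls, 7.86 after 12 Gy and 8.89, 8.18 and 8.57 after 15 Gy. Next came psmd8, also of the lid, with 9.35, 8.83 and 9.23 at 15 Gy against 8.43 in the control array. Differences from the control were 0.79 (SE 0.33) for psmd13 and 0.71 (SE 0.26) for psmd8. The ubiquitin receptor gene psmd4a was the highest of this class at 12 Gy, with 8.73 in controls, 9.08 after 12 Gy and 9.35, 9.09 and 9.31 after 15 Gy. Its 12 Gy value lay just under the lowest array at 15 Gy, and its copy psmd4b had differences of 0.18 at 12 Gy and 0.45 at 15 Gy.

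At the low end stood psmd2 and psmd12. The gene psmd2, which encodes a large scaffold subunit of the base, had 8.36, 8.09 and 8.28 in the 15 Gy arrays against 8.08 in the control array, and replicate 2 was only just above the control. Its partner in the base, psmd1, had 9.39, 8.98 and 9.30 at 15 Gy against 8.71 in the control array, a difference of 0.52 (SE 0.21), and a second probe set gave 0.45. The lid gene psmd12 differed by 0.18 (SE 0.14) at 15 Gy and −0.27 at 12 Gy. Its second probe set gave 0.15 and −0.60, with replicate 2 equal to the control to 2 decimals.

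**Figure D2:**
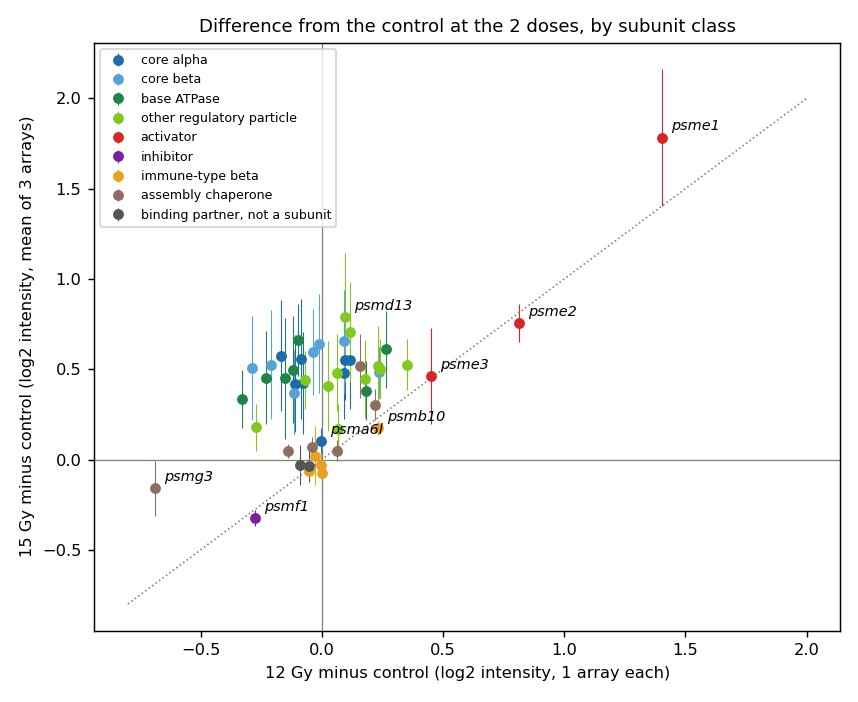
Difference from the control at 12 Gy (horizontal axis, 1 array) and at 15 Gy (vertical axis, mean of 3 arrays, bars show 1 SD of the 15 Gy arrays), in log2 intensity, for the 50 genes coloured by class; both axes use the same control array, and the dotted line marks equal differences. Core and regulatory particle genes stand between −0.33 and 0.35 along the horizontal axis and 0.10 to 0.79 along the vertical axis, while psme2, psme3 and psmf1 lie near the dotted line and psme1 stands far out along both axes, at 1.40 and 1.78.

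The question of dose is confined here to 1 array at 12 Gy. Of the 33 core and regulatory particle genes, 32 lay above the 12 Gy array in all 3 arrays at 15 Gy, against 31.3% of named genes, and the median difference of 15 Gy from 12 Gy was 0.50. The exception was psmd2. Over the whole family 36 of 50 lay above it in all 3 arrays, and 2, psmb10 and psmf1, lay below it, against 21.1% of named genes. In 17 of the 33 the 12 Gy array was below the control and in 16 above it, where 48.4% of named genes were above. All 15 Gy arrays exceeded the control in all 33, so the 17 had 12 Gy below it and 15 Gy above. Named genes had that joint pattern in 5.22%, but for the 33 it restates the 15 Gy result. The 17 ranged from psmc2 (−0.33) to psma6l (−0.0034) at 12 Gy. With limma, 0 of the 50 genes passed for 15 Gy against 12 Gy (0.00645% of probe sets did), with 5 higher and 0 lower at an unadjusted p of 0.05 against 5.35% and 3.51% of named genes. The 5 were psmc4 (0.76), psmc2 (0.66), psmg3 (0.53), psmd11b (0.51) and psmd12 (0.45). The comparisons share arrays, so they are not independent of each other.

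The spread among the 15 Gy pools was itself shared by the core and regulatory particle genes. Replicate 2 was the lowest of the 3 arrays in 32 of the 33, against 39.0% of named genes, and replicate 1 the highest in 27, against 44.7%. Summed over the 33 genes, intensity was 13057 in controls, 12987 after 12 Gy and 21054, 15413 and 19643 after 15 Gy. The actin 5′ to 3′ ratio ranked the 15 Gy arrays in the same order as this sum. Replicate 2 at 15 Gy and the 12 Gy array had nearly equal actin ratios, 0.0350 and 0.0354, with gene medians of 0.22 and −0.0034 relative to the control. The GAPDH 5′ to 3′ ratio was 0.174 in controls, 0.177 after 12 Gy and 0.242, 0.189 and 0.228 after 15 Gy. It ranked the 15 Gy arrays in the same order as actin did, and put replicate 2 above the 12 Gy array. The control array was lowest in both ratios. Every 15 Gy array had a GAPDH ratio above those of the control and 12 Gy arrays, as was the case for the gene medians. The difference of 15 Gy from the control therefore ran alongside this ratio, as did the spread among the replicates. The part of RNA quality in these values was not tested. The neuronal sum was lowest in replicate 1, where the proteasome sum was highest. The summed intensity of 11 epidermal markers was 6992 in controls, 7663 after 12 Gy and 20658, 13425 and 18273 after 15 Gy. This was the same order of the 15 Gy arrays as for the proteasome sum. Of the 11, 10 lay above the control in all 3 arrays at 15 Gy, against 41.0% of named genes. Likewise 10 lay above the 12 Gy array in all 3, against 31.3%. In 4 of the 11 the 12 Gy array was below the control while all 15 Gy arrays were above it, against 5.22%. The 12 Gy array was above the control in 6 of the 11, with krt8 and krt18a.1 differing by 1.95 and 3.21. In contrast krt5 and icn2 differed by −0.96 and −0.92 at 12 Gy, so the epidermal sum at 12 Gy joins rises and falls. The part of tissue composition in these values was not tested either.

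**Figure D3:**
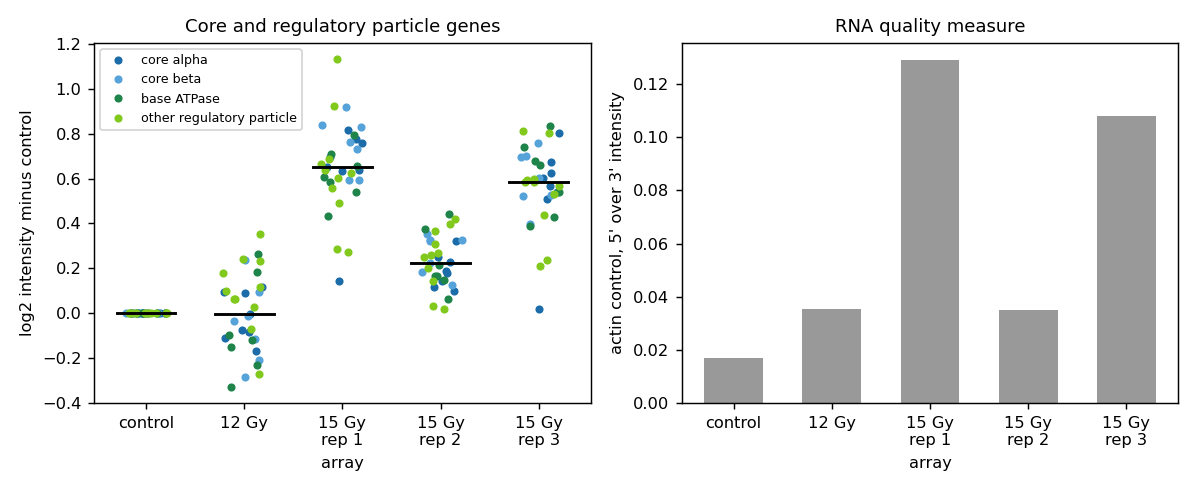
Left, difference in log2 intensity from the control array for the 33 core and regulatory particle genes (points, coloured by class, with the median as a black bar) in each array. Right, the actin 5′ to 3′ ratio of the same arrays (bars, linear scale from 0), which is 0.129 and 0.108 in replicates 1 and 3 and at most 0.0354 in the other arrays.

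Across the 5 arrays the profiles of these genes were much alike. The median Pearson r over the 528 pairs of core and regulatory particle genes was 0.94, and the lowest was 0.34. With each gene left out in turn, 30 of 33 had r above 0.9 with the mean profile of the rest, and 8.62% of all named genes had r above 0.9 with the profile of the 33. The exceptions were psma6l (0.53), psmd4a (0.86) and psmd12 (0.89). These are descriptions over 5 arrays, in which the 15 Gy replicates and the scaling are common to all genes. The named genes outside the family closest to the mean profile of the 50 were ilrun, idh3a, mrpl4, vcp and copz1, with r of 0.9984 to 0.9994. Among them, vcp encodes the ATPase that extracts ubiquitin-tagged proteins from complexes and membranes for the proteasome. Its values were 9.49 in controls, 9.53 after 12 Gy and 10.66, 9.84 and 10.48 after 15 Gy.

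The activators stood above the control at both doses, with a median difference of 0.76 at 15 Gy and 0.81 at 12 Gy over 3 genes. Activators are rings that open the gate of the core without ubiquitin or ATP. The gene psme1 stood at 4.09 in controls, 5.50 after 12 Gy and 6.25, 5.50 and 5.88 after 15 Gy. Every irradiated array lay above the control by more than 1 on the log2 scale, and the 12 Gy array and replicate 2 held the same value. At 15 Gy psme1 was 3.44-fold higher (log2 difference 1.78, SE 0.35, limma adjusted p = 0.167) and at 12 Gy 2.65-fold higher (1.40, SE 0.43, adjusted p = 0.282). The control value was in the dimmest 25% of probe sets on its array, where a fold change is least certain. With a constant of 16 added to all intensities the psme1 difference was 1.18 at 15 Gy and 0.89 at 12 Gy.

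Its partner in the same ring, psme2, had 6.04 in controls, 6.85 after 12 Gy and 6.92, 6.73 and 6.74 after 15 Gy. The 12 Gy array fell within the range of the 15 Gy arrays. The differences were 0.76 at 15 Gy (SE 0.12, limma adjusted p = 0.167) and 0.81 at 12 Gy (SE 0.14, adjusted p = 0.217). The difference of 15 Gy from 12 Gy was −0.05 (SE 0.12) for psme2 and 0.38 (SE 0.35) for psme1. Of the 50 genes only these 2 were higher at 12 Gy than in the control at an unadjusted p of 0.05, and psmg3 was lower, against 10.4% and 7.94% of named genes. At an adjusted p of 0.05, 0 of the 50 and 0.0% of probe sets passed for 12 Gy against control.

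The remaining activator, psme3, forms a ring of its own in the nucleus. It stood at 8.30 in controls, 8.76 after 12 Gy and 8.90, 8.46 and 8.94 after 15 Gy, with differences of 0.46 (SE 0.25) at 15 Gy and 0.45 (SE 0.31) at 12 Gy. Replicate 2 lay between the control and the 12 Gy array. The inhibitor gene psmf1, whose protein blocks the core in isolated preparations, was the lowest subunit or regulator gene at 15 Gy. Its values were 6.73 in controls, 6.46 after 12 Gy and 6.45, 6.41 and 6.36 after 15 Gy, so all 4 irradiated arrays lay below the control and within 0.10 of each other. The difference was −0.32 at 15 Gy (SE 0.08, limma adjusted p = 0.169) and −0.27 at 12 Gy (SE 0.10). A second, dimmer probe set of psmf1 did not show it, with 5.14, 5.19 and 5.42 in the 15 Gy arrays against 5.19 in the control array.

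**Figure D4:**
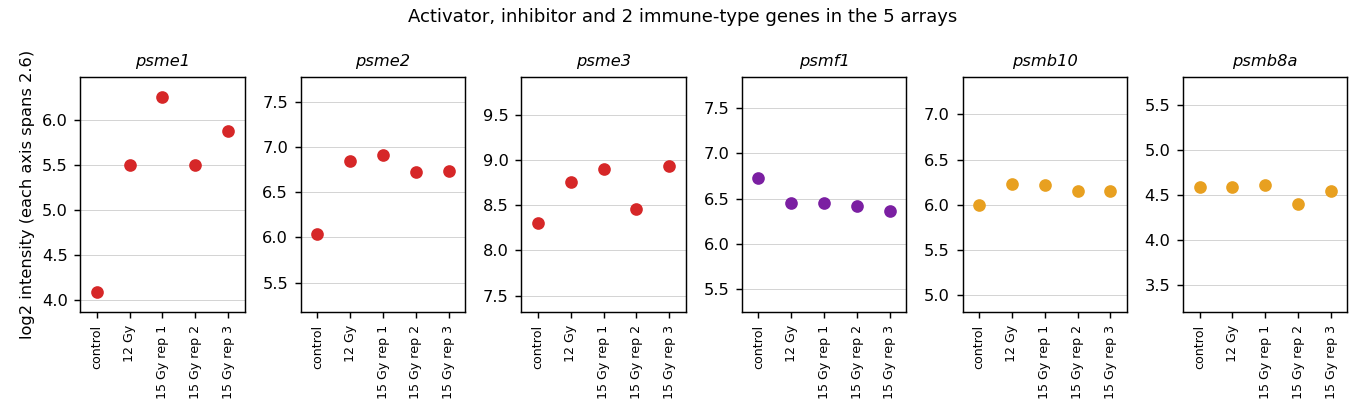
Log2 intensity of psme1, psme2, psme3, psmf1, psmb10 and psmb8a in each of the 5 arrays (points; no error bars, since each point is 1 array), on axes that all span 2.6. The irradiated arrays stand at 5.50 or more against 4.09 for psme1 and at 6.46 or less against 6.73 for psmf1, while psmb8a stays between 4.40 and 4.61.

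The immune-type β subunits stayed near the control, with a median difference of −0.03 at 15 Gy, whose sign turned after another quantile normalization (0.030) and cyclic loess (0.072), and −0.0024 at 12 Gy. In RefSeq's order of genes psmb8a, psmb13a, psmb12 and psmb9a are neighbours, between a class I antigen gene (mhc1uba) and the peptide transporter gene tap2a, and psmb10 lies on another chromosome. The gene psmb8a, which encodes the immune form of the psmb5 subunit, had 4.61, 4.40 and 4.54 in the 15 Gy arrays against 4.59 in the control array. The gene psmb9a, for the immune form of psmb6, had 4.74, 4.45 and 4.46 in the 15 Gy arrays against 4.53 in the control array. Their differences at 15 Gy were −0.07 (SE 0.12) and 0.02 (SE 0.16), each in the dimmest 25% of probe sets on 4 of the 5 arrays. The teleost genes psmb12 and psmb13a differed by −0.03 (SE 0.09) and −0.06 (SE 0.07). At such intensities an array may not register a change of transcript, so these values do not show that the genes were unaffected.

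Of the 5, psmb10, the immune form of psmb7, alone lay above the control in every irradiated array. It stood at 6.00 in controls, 6.23 after 12 Gy and 6.22, 6.15 and 6.15 after 15 Gy. The differences of 0.18 at 15 Gy (SE 0.08, limma adjusted p = 0.238) and 0.23 at 12 Gy (SE 0.09) were small next to those of psme1.

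Genes of antigen presentation and the interferon response, listed for comparison, included several that stood above the control at both doses. Of 33 listed, 13 were measured, and 10 of the 13 lay above the control in all 3 arrays at 15 Gy, against 41.0% of named genes, with medians of 0.56 at 15 Gy and 0.47 at 12 Gy and 0 past the adjusted threshold in either direction. At an unadjusted p of 0.05, 7 were higher at 15 Gy and 5 at 12 Gy, against 17.4% and 10.4% of named genes. The 7 were b2m, calr3a, calr3b, pdia3, irf1b, irf9 and isg15. The list joins both kinds of gene, and its median at 15 Gy is the value of calr3a. Its counts and medians therefore do not measure the interferon response alone. Of the 13, 3 were in the dimmest 25% of probe sets on all arrays and 6 on at least 1. The ubiquitin-like interferon-induced gene isg15 had 5.29 in controls, 7.70 after 12 Gy and 8.48, 7.64 and 7.81 after 15 Gy. The transcription factor gene irf1b had 5.30 in controls, 8.16 after 12 Gy and 7.79, 7.23 and 7.07 after 15 Gy, with the 12 Gy array the highest. Its copy irf1a, dim at 3.49 in controls, differed by −0.0011 at 15 Gy and 0.20 at 12 Gy. The class I light chain gene b2m differed by 1.76 at 15 Gy and 1.52 at 12 Gy, whereas the class I gene mhc1uka differed by −0.40 and −0.19 and the peptide-loading gene tapbp.1 by −0.04 and 0.22. The control value of b2m, 4.59, was in the dimmest 25% of probe sets on its array, and mhc1uka was so on all arrays.

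Leukocytes carry much of the immune-type proteasome of an animal. Of 15 leukocyte markers 12 were measured, 7 lay above the control in all 3 arrays at 15 Gy against 41.0% of named genes, and their summed intensity was 414 in controls, 556 after 12 Gy and 703, 586 and 711 after 15 Gy. The pan-leukocyte genes ptprc and lcp1 differed by 0.59 and 1.21 at 15 Gy and by 0.86 and 1.15 at 12 Gy. The control value of ptprc, 4.09, was in the dimmest 25% of probe sets on its array. The markers coro1a and lyz differed by 1.29 and 1.02 at 15 Gy and by 0.77 and 0.15 at 12 Gy. In contrast csf1ra, cd74b and ikzf1 differed by 0.00, 0.00 and −0.29 at 15 Gy (csf1ra held 1 value in all 5 arrays to 2 decimals), and 5 of the 12 were in the dimmest 25% on all arrays. The part of leukocytes in the values of psme1 and psme2 was not tested.

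The assembly chaperones as a class stayed near the control, with a median of 0.06 at 15 Gy (−0.017 after another quantile normalization), and their members ranged widely. Of the chaperones of the ATPase ring, psmd5 stood at 7.69, 7.34 and 7.52 in the 15 Gy arrays against 7.00 in the control array, a difference of 0.52 (SE 0.17), where the ATPase genes had a median of 0.45. The others of that group, psmd9 and psmd10, differed by 0.07 (SE 0.08) and 0.05 (SE 0.08). Among the chaperones of the α ring, psmg2 had 7.24, 7.07 and 7.15 at 15 Gy against 6.85 in the control array (0.30, SE 0.10), while psmg1, with which it pairs, differed by 0.05 (SE 0.09). The gene psmg3 was the lowest of all 50 at 12 Gy, with 7.35 in controls, 6.66 after 12 Gy and 7.24, 7.01 and 7.30 after 15 Gy. Its 12 Gy difference was −0.69 (SE 0.19, limma adjusted p = 0.264), and it rests on 1 array. The maturation factor gene pomp, outside the naming pattern, also had a 12 Gy value below the control (−0.26) and 15 Gy values above it (0.24, SE 0.09).

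The 2 genes named after proteasome proteins lay close to the control. The gene psmc3ip, a recombination factor, and psme3ip1 each differed by −0.03 at 15 Gy (SE 0.11 and 0.12), and neither had all its 15 Gy arrays on 1 side of the control. Of the 50 genes, 42 lay above the control in all 3 arrays at 15 Gy and 3 below it, against 41.0% and 36.5% of named genes. The 3 were psmf1, psmb13a and psmg3. The count above the control was 39 after another quantile normalization, 36 after cyclic loess and 35 with equal array medians. The shares of named genes were then 41.1%, 42.6% and 35.6%. In 23 of the 50 the control was the lowest of all 5 arrays, against 35.8%.

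Outside the naming pattern, genes that serve the proteasome or its substrates were examined from 2 lists. The partner list includes sem1 and adrm1, which encode subunits of the regulatory particle and are not among the 33 genes above. For adrm1 all 3 arrays at 15 Gy lay above the control. For sem1 replicate 2 lay below it, at 8.02 against 8.10, with a mean difference of 0.25 (SE 0.27) at 15 Gy. Of 24 proteasome partner genes listed, 14 were measured, and 10 of them lay above the control in all 3 arrays at 15 Gy (median 0.48 at 15 Gy, 0.11 at 12 Gy). Of 31 ubiquitin and shuttle genes, 19 were measured and 14 lay above it (median 0.22 and 0.11), against 41.0% of named genes. With limma 0 of either list passed the adjusted threshold in any comparison, and 3 of each were higher at 15 Gy at an unadjusted p of 0.05, against 17.4% of named genes. The genes for the factor Nfe2l1 were not analysed here.

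The deubiquitinase gene usp14, whose protein trims ubiquitin chains on the regulatory particle, had 6.54 in controls, 6.74 after 12 Gy and 7.41, 7.19 and 7.23 after 15 Gy. The other such enzyme of the particle, uchl5, differed by −0.10 (SE 0.07) at 15 Gy. The ubiquitin receptor gene adrm1 differed by 0.45 at 15 Gy and 0.33 at 12 Gy. The stress-inducible polyubiquitin gene ubb had 9.83 in controls, 11.10 after 12 Gy and 11.97, 10.70 and 11.41 after 15 Gy. The cargo receptor gene sqstm1, which serves autophagy as well, had 6.55 in controls, 8.11 after 12 Gy and 8.82, 7.88 and 8.30 after 15 Gy. For ubb and sqstm1, as for psme1, all irradiated arrays were above the control and the 12 Gy array above 15 Gy replicate 2 or equal to it.

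The oxidative stress factor gene nfe2l2a, also known to act on some proteasome genes in mammals, differed from the control by 1.32 (SE 0.40) at 15 Gy and 0.79 at 12 Gy. The gene zfand5a, whose mammalian counterpart stimulates the proteasome, differed by 1.27 and 1.04, and its copy zfand5b by 0.53 and 0.72. The ubiquitin-activating gene uba1 differed by 0.11 (SE 0.08) and 0.02.

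**Figure D5:**
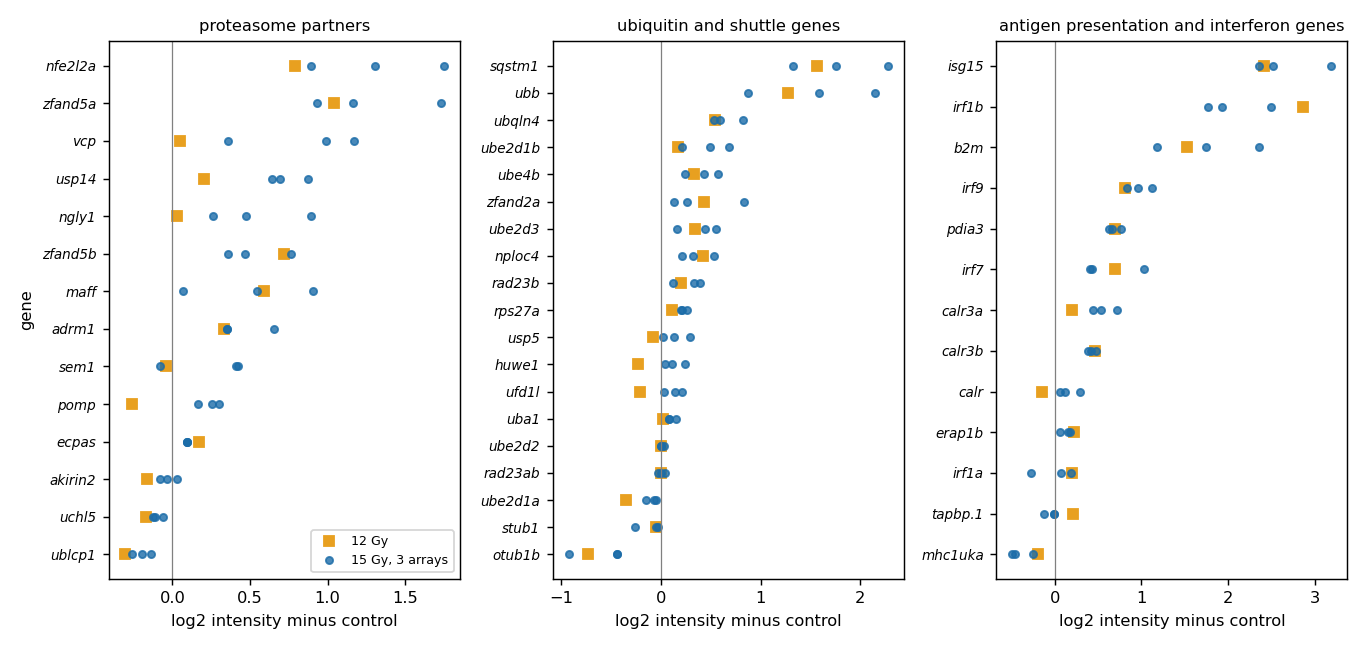
Difference in log2 intensity from the control array at 12 Gy (squares, 1 array) and in the 3 arrays at 15 Gy (circles) for the measured genes of the partner, ubiquitin and antigen presentation lists, ordered within each list by the mean at 15 Gy. For vcp and usp14 the square lies left of all circles, at 0.05 and 0.20, while for ubb, sqstm1, isg15 and b2m it lies among them.

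The size of the core and regulatory particle difference depended on scaling and on the pools. After cyclic loess the median at 15 Gy was 0.34 and 28 of 33 genes lay above the control in all 3 arrays (42.6% of named genes), and the medians of the α and β classes were 0.34 each, against 0.52 and 0.53 as deposited. The lowest genes of the regulatory particle, psmd2 and psmd12, then stood at 0.045 and 0.025. Without 15 Gy replicate 2 the median was 0.63, and without replicates 1 or 3 it was 0.41 and 0.46.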

How the data were processed

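Per the labels' protocols, 6 µg of total RNA per pool was turned into labelled cRNA and hybridised to Affymetrix arrays. The deposited table gives 1 linear intensity per probe set and array, from 3.99 to 24171. RMA (background correction, quantile scaling, probe summary) is named in the submitters' processing notes, with no version given in the sources used here. Since RMA works in log2, the authors probably converted its output to linear intensity, which no label states. The log2 of each deposited intensity was analysed, with nothing added. Detection calls could not be made from these values.

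After 115 control probe sets were left out, 15502 were tested. The platform's annotation table gives 1 symbol for 10795 of them, several for 135 (left unnamed) and none for 4572. Symbols were updated by Entrez identifier with RefSeq's table for GRCz12tu, in which all 50 members were found. A gene was read from its brightest probe set by mean log2 value, and 8 members had several. The members held 8 pairs of arrays with identical values, in 6 genes.

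All 5 arrays entered one limma model of group means (limma 3.58.1, R 4.3.3), with two-sided tests and Benjamini-Hochberg adjustment over all probe sets at 0.05. Its 2 residual degrees of freedom came from the 15 Gy arrays (the prior added 1.20), so the control and 12 Gy arrays were assumed to vary as those did. SE is the moderated standard error. The number of arrays limits the precision, and no batch is in the labels. The fit was tested on simulated data in which every array varied as the 15 Gy arrays did. Such data cannot check the assumption about the control and 12 Gy arrays. The changes put in were larger than that of any member. The classes follow the symbols, all members may be named, and other named genes come from lists of partner genes and cell markers or from the likeness rule (the 5 genes with the highest r to the members' mean profile, clone names left out). Members and lists were chosen with earlier results of these data known. Summaries were made in Python 3.11.15 with pandas 2.3.3, and plots with matplotlib 3.10.9. Alternatives were other scalings, an added constant, a filter on dim probe sets, other probe sets of a gene, leaving out each 15 Gy array, another variance model and the irradiated arrays as 1 group.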

Additional observations from a re-analysis of the deposited data

How the results depend on the processing

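No paired analysis was possible, since control and 12 Gy had 1 array each and no label pairs the pools of different groups. For 15 Gy against control, the limma adjusted p of the 50 genes stayed above 0.05 in every alternative run. For 12 Gy against control, only psme1, psme2, psmf1, psmg3 and psmb10 were followed through the alternatives, and they stayed above 0.05 too. For 15 Gy against 12 Gy, no member was followed. The lowest limma adjusted p was 0.0736, for psme2 with the irradiated arrays as 1 group. That grouping called 6 probe sets against the control, in place of 0. For 12 Gy against control, 4 were called after another quantile normalization, 2 after cyclic loess, and 1 with equal array medians, an added constant of 16 or the trended variance model, in place of 0. For 15 Gy against 12 Gy, the 1 call was lost (0) without the dimmest 30% of probe sets, and the count was 0 to 0 without each 15 Gy replicate. Class medians at 15 Gy also moved. After cyclic loess the α, β and ATPase medians were 0.34, 0.34 and 0.29, in place of 0.52, 0.53 and 0.45. Activators gave 0.64 with the added constant. The inhibitor psmf1 gave −0.40 (quantile), −0.38 (equal medians), −0.28 (added constant), −0.13 (mean of probe sets) and 0.058 (dimmest probe set), where its sign turned. Immune-type genes gave 0.030 (quantile), 0.072 (cyclic loess) and −0.081 (equal medians). With the dim filter the value was 0.18, which is that of psmb10 alone, the only gene of the class left. Chaperones gave −0.017 (quantile), 0.014 (cyclic loess), 0.0066 (equal medians), 0.079 (mean of probe sets) and 0.11 (dimmest). Signs also turned in single genes, all of them within 0.10 of 0 as reported except psmf1 and psmc1b (0.38). With quantile normalization they were psmd9 (−0.017), psmg1 (−0.018), psmd10 (−0.039), psmc3ip (0.049), psmb12 (0.030) and psmb8a (0.0087). With cyclic loess they were psmg1 (−0.0071), psmc3ip (0.073), psmb12 (0.072), psmb13a (0.029) and psmb8a (0.034). With equal medians they were psmg1 (−0.0022), psmd10 (−0.0059) and psmb9a (−0.031). With the dimmest probe set they were psmd9 (−0.042), psmc1b (−0.19) and psme3ip1 (0.29), which also gave 0.024 with the mean of its probe sets. Leaving out 15 Gy replicates gave −0.067 to 0.035 for psme3ip1, −0.080 to 0.0089 for psmc3ip and −0.073 to 0.071 for psmb9a. The causes were not tested. Without the 2 binding partners, the median over the family was 0.46, against 0.45. Over the family it was 0.38 to 0.59 without each 15 Gy replicate. Low signal limits what psmb8a, psmb9a, psmb12 and psmb13a can show.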
